A study of Mus musculus with 24 samples.

Results

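The 39 genes described here encode the mitochondrial enzymes that oxidise acyl-CoA, the neighbouring enzymes of branched-chain amino acid and propionyl-CoA breakdown, and the enzymes that make and use ketone bodies. They were chosen by gene symbol, without regard to their values, from the 41549 genes of an mRNA sequencing table, and all 39 were in the table and passed the filter on low counts that left 15916 genes for testing. The cells were dispersed pancreatic islet cells of wild type C57BL/6NRj mice, male and female, aged 12 to 14 weeks. They were transfected with 50 pmol of an antisense oligonucleotide (ASO), either a control (Ctr) or one directed against the tRNA fragment 5'tRF Glu(CTC) (αGlu), and then kept for 48 h with 0.5 mM palmitate (PA) on 0.75% bovine serum albumin or with the albumin alone (BSA), in medium with 1% serum. The 24 libraries made 4 groups of 6, Ctr BSA and Ctr PA with the control ASO and αGlu BSA and αGlu PA with the other, and each group had 3 libraries in each of 2 batches. The labels do not say what a batch is. In the study, replicates of primary cells came from different animals and the groups of a replicate shared an animal, but the labels do not tie libraries to animals, so that the shared animal is not a term in the fit.

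Acyl-CoA is shortened in the mitochondrial matrix by repeated rounds of dehydrogenation, hydration, a second dehydrogenation and thiolysis. Acyl-CoA dehydrogenases of different chain length preference carry out the first step and hand their electrons to the electron transfer flavoprotein, from which they enter the respiratory chain. Ketone body enzymes interconvert acetoacetate and 3-hydroxybutyrate and turn acetoacetate back into acetyl-CoA, and beta cells are known for a high level of the short-chain enzyme encoded by Hadh, whose loss in humans causes hyperinsulinism.

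The αGlu ASO is shown with the tRNA fragment sequence it was designed against, since the ASO separates the groups. Capitals in the fragment mark the 20 bases that pair with the ASO.
αGlu ASO: TAACCACTAGACCACCAGGG
Target: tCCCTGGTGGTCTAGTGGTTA
Promoter windows of 3 genes are shown because the PA results below set these genes together or apart. Each window holds 250 bases before and 50 bases after the RefSeq gene start on build GRCm38.p6. Hadha and Hadhb, which encode the alpha and beta subunits of the mitochondrial trifunctional protein, lie head to head on chromosome 5, with gene starts 86 bases apart in the GENCODE annotation of GRCm38. In the Hadhb window at chr5:30155003-30155302, plus strand, capitals mark the 228 bases that also lie in the Hadha window. In the windows of Acadvl at chr11:70015379-70015678 and Acadm at chr3:153944594-153944893, both on the minus strand, capitals mark AGGTCA on either strand, the hexamer that many nuclear receptors bind.
Hadhb: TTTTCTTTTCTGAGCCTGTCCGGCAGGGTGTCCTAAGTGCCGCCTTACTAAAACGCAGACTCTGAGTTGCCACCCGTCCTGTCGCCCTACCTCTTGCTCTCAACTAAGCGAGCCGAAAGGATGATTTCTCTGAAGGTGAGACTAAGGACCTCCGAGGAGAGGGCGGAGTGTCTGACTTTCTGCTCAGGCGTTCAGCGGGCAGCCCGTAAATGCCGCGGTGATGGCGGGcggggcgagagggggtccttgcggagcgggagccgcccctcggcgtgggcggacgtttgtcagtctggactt
Acadvl: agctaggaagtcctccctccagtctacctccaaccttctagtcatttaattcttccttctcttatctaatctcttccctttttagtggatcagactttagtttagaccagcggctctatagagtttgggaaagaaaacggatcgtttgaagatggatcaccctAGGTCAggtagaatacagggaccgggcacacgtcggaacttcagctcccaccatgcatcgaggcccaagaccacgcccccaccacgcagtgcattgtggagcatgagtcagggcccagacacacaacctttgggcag
Acadm: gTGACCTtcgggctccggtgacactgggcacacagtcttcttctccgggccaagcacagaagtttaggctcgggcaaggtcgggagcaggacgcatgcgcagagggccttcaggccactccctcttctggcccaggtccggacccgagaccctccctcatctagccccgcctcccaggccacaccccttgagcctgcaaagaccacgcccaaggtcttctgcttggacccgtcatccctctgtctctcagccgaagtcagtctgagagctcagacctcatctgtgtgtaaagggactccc
The 34 genes that had a window had 37 windows. These 6 letters were in 8 of the 37, belonging to 7 genes, and in 16.3% of all 32851 windows. Among the genes that rose with PA, 1 of 8 with a window held it (Acadvl), against 6 of 26 of the others (Acacb, Acadm, Bckdhb, Echs1, Hibadh and Pcca). Acat1, Acaa2 and Decr1 also rose with PA but had no window, so that they are not in this comparison. The direct repeat AGGTCANAGGTCA and the extended form TCAAGGTCA, both of which contain AGGTCA, were found on neither strand of any of the 34 genes' windows, against 0.0396% and 0.423% of all windows. CCAAT was in 19 of the 37 windows, belonging to 17 of the 34 genes, and in 37.4% of all windows. CACGTG was in 1 of the 37 (Mccc2) and in 7.15% of all windows, and TGACGTCA in 0 of the 37 and in 1.79%.

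Library totals ran from 18214719 to 35001979 exon reads, with a median of 26701201.5. Values are given as CPM, counts relative to the library total after scaling by the trimmed mean of M values. Among the Ctr PA libraries, the library S23 was the lowest for 8 of the 11 genes that rose with PA, and yet the highest for Hadhb. Of the genes that did not rise, it was the highest for Acadsb, Acad9, Hadh, Oxct1, Bckdhb and Hibadh. It was the lowest for Acads, Echs1, Hsd17b10, Eci1, Bdh1, Bckdha, Auh and Acacb. The SD over genes of its log2 difference from the other libraries of its group and batch was 0.44, the second largest after the Ctr BSA library S1 (0.47), with a lowest value of 0.24. Results that rest on S23 are given with and without it, as a description. S23 was picked out from these genes' own values, so that larger PA responses without it follow in part from that choice. S1 was left out only in turn with the other libraries. The summed CPM of 9 beta cell markers was 83830 to 151600, with none of the 9 below 1 CPM in every library, as the labelled tissue requires, and the sum of 5 fibroblast and stellate markers was 80.4 to 869 in the BSA libraries and 9.57 to 129.5 in the PA libraries. Of these 5 markers, 4 were lowered by PA in Ctr cells, and none of the 5 stayed below 1 CPM in every library. The sum of 5 acinar markers, 4 of them lowered by PA in Ctr cells, was 160 to 12530 in the Ctr BSA libraries and 96.4 to 3273 in the Ctr PA libraries. Macrophage markers were lowered in 4 of 6 in Ctr cells (median log2 fold change -2.11), with a sum of 76.8 to 341 CPM in Ctr BSA and 84.01 to 127.5 in Ctr PA, and in 1 of 6 in αGlu cells, with a median of 0.06. PA in Ctr cells also lowered 2 of 4 ductal, 1 of 2 delta cell, 1 of 4 alpha cell and 1 of 1 PP cell markers, and no endothelial or glial marker was called. Of the 9 beta cell markers, PA raised 3 and lowered 3 in Ctr cells, and raised 3 and lowered 2 in αGlu cells. Over all genes tested, PA raised 15.5% and lowered 14.5% in Ctr cells, and raised 14.4% and lowered 14.2% in αGlu cells. In RNA from a mixed culture, fewer cells of a type and less RNA per cell cannot be told apart, and the part of these cells in the results below was not tested.

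In Ctr BSA cells the members covered a wide range of levels on the scale per gene length, from 1.06 to 232 TPM, transcript counts relative to length and library, with a median of 17.3. Hadh, the short-chain 3-hydroxyacyl-CoA dehydrogenase, stood first at 232 ± 42.03 TPM (SD, n = 6), 2.65 times the next gene. That gene was Oxct1 (87.4 ± 22.4 TPM), which encodes the enzyme that activates acetoacetate in tissues that use ketone bodies. The flavoprotein subunits Etfa (62.1 ± 6.08 TPM) and Etfb (54.6 ± 8.72 TPM) came next. Among the straight-chain acyl-CoA dehydrogenases, the long-chain Acadl (45.5 ± 9.33 TPM) and very long-chain Acadvl (42.2 ± 6.77 TPM) were above the short-chain Acads (13.4 ± 4.54 TPM) and the medium-chain Acadm (12.7 ± 1.95 TPM), with no overlap between the libraries of the pairs. The lowest was Acacb (1.06 ± 0.78 TPM), the acetyl-CoA carboxylase of the outer mitochondrial membrane. In all, 31 of the 39 genes were at 10 TPM or more. Of 38 pairs of neighbours in the order, 36 overlapped in their ranges over libraries, so that the order is firm only at its ends, at Hadh and at Acacb. Between those ends it also depends on the gene length used. Hadha, with 8730 annotated exon bases, had a mean of 133.8 CPM and 41.2 TPM. Etfb, with 1164, had a mean of 23.8 CPM and 54.6 TPM. How much of the TPM order reflects the exon annotation was not tested. Together the counts of the 39 genes were 0.160% to 0.197% of the scaled library total in Ctr BSA. Hadh alone made 20.5% to 25.7% of that sum.

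**Figure D1:**
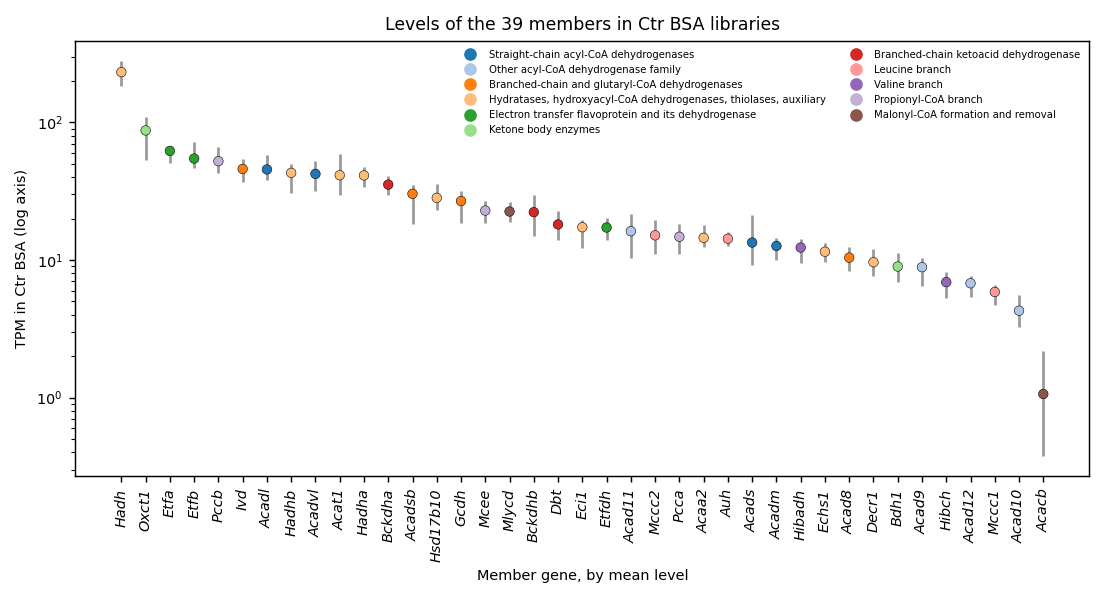
Levels of the 39 genes in the 6 Ctr BSA libraries, in deposited TPM on a log axis, ordered by mean. Points are means, coloured by role, and lines run from the lowest to the highest library. Hadh sits at 232 TPM, apart from Oxct1 at 87.4, and Acacb is last at 1.06.

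The first comparison asked how PA changed these genes in Ctr cells. PA raised 11 of the 39 genes and lowered 2 at an adjusted p below 0.05 (edgeR quasi-likelihood test, Benjamini-Hochberg adjusted over all genes tested), and 26 did not pass. Over all genes tested, 15.5% were raised and 14.5% lowered, so that the raised share of the members was above the background and the lowered share was below it. The median log2 fold change of the members was 0.05, against 0.01 for all genes. In 7 members every PA library was above every BSA library, where 2.97% of all genes did so, and in none was every PA library below, where 2.86% of all genes did so. Without library S23 these counts were 10 and 1, where 3.83% and 3.54% of all genes did so with the same library left out. With the cutoff of the study (more than 2-fold, unadjusted p below 0.05), 2 members were raised (Acat1 and Acaa2) and 0 lowered, where 0.854% of all genes were raised. The raised genes were Acadvl, Acadl, Hadha, Hadhb, Acaa2, Acat1, Decr1, Etfa, Etfb, Etfdh and Mlycd. Their log2 fold changes lay between 0.30 and 1.56 with all libraries and between 0.33 and 1.67 without S23. None of the 11 genes of branched-chain ketoacid, leucine, valine and propionyl-CoA breakdown passed the test.

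Of the 4 straight-chain acyl-CoA dehydrogenases, 2 rose, and these were the enzymes for the longest chains. Acadvl (chromosome 11, 70010183 to 70015411) was at 38.4, 40.6 and 50.2 CPM (lowest, median and highest) in Ctr BSA and at 60.96, 76.6 and 86.2 in Ctr PA. The groups did not overlap, and the log2 fold change was 0.86 ± 0.07 (SE; adjusted p = 5.68e-09, edgeR), a 1.81-fold increase. Acadl (chromosome 1, 66830839 to 66863277), the long-chain enzyme, was at 27.95, 33.7 and 40.6 CPM without PA and at 43.99, 58.9 and 79.6 with it. All PA libraries were above all BSA libraries, with a log2 fold change of 0.81 ± 0.07 (adjusted p = 1.11e-08, edgeR). Acadm, the medium-chain enzyme, was at 13.8, 19.1 and 19.9 CPM in Ctr BSA and at 17.5, 20.1 and 22.3 in Ctr PA, which overlapped (log2 fold change 0.11, 95% interval -0.05 to 0.27, adjusted p = 0.296, edgeR). Acads, the short-chain enzyme, was also not called (0.05, interval -0.22 to 0.32, adjusted p = 0.816, edgeR). The interval for Acadm thus ended below the lower end of that for Acadvl, 0.71.

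**Figure D2:**
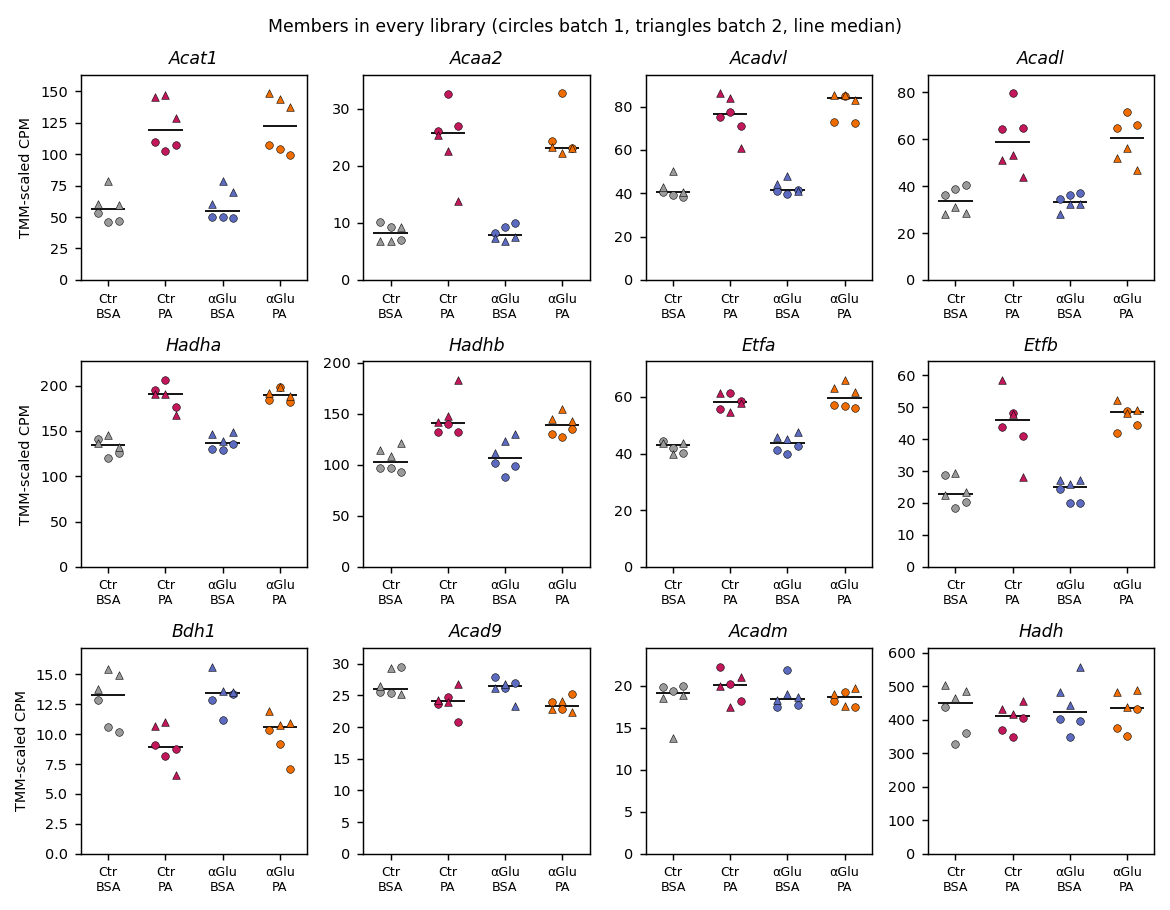
CPM of 12 members in every library of the 4 groups, with circles for batch 1, triangles for batch 2 and a line at the median. The Ctr PA libraries of Acat1 lie at 102 to 147 CPM, all above the Ctr BSA libraries at 45.97 to 78.9, while those of Acadm and Hadh overlap with BSA.

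Of the 9 hydratases, 3-hydroxyacyl-CoA dehydrogenases, thiolases and auxiliary enzymes, 5 rose and 4 did not pass. Acaa2, the thiolase that releases acetyl-CoA in the matrix, had the largest log2 fold change of all members. It was at 6.83, 8.14 and 10.1 CPM in Ctr BSA and at 13.8, 25.8 and 32.6 in Ctr PA, with S23 the lowest PA library and still above every BSA library. Its log2 fold change was 1.56 ± 0.13 (adjusted p = 6.09e-09, edgeR), or 2.95-fold, and 1.67 without S23. Acat1 (chromosome 9, 53580522 to 53610382), the thiolase of acetoacetyl-CoA that serves both oxidation and ketone body metabolism, had the smallest p. It was at 45.97, 56.4 and 78.9 CPM in Ctr BSA and at 102, 119 and 147 in Ctr PA, again without overlap (1.11 ± 0.07, adjusted p = 2.07e-11, edgeR), a 2.15-fold increase.

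The trifunctional protein subunits rose by nearly equal amounts. Hadha (chromosome 5, 30118304 to 30155162) was at 120.5, 135 and 146 CPM in Ctr BSA and at 167, 191 and 206 in Ctr PA (log2 fold change 0.49 ± 0.05, adjusted p = 2.89e-07, edgeR). Hadhb (chromosome 5, 30155248 to 30184593) was at 93.1, 102.5 and 121 CPM and at 132, 141 and 183 (0.48 ± 0.06, adjusted p = 1.28e-06, edgeR). Neither gene's groups overlapped, although S23 was the lowest PA library for Hadha and the highest for Hadhb, so that the Hadhb value without it was 0.43 and the Hadha value 0.53. Decr1, the reductase needed for some unsaturated chains, rose by less (0.32 ± 0.09, adjusted p = 0.00813, edgeR) and its groups overlapped. The 4 genes that did not pass were Echs1, the short-chain hydratase (0.07), Hadh (-0.08), Hsd17b10, a dehydrogenase that also acts on isoleucine intermediates (0.01), and Eci1, an isomerase for unsaturated chains (-0.02), with adjusted p from 0.418 to 0.909 (edgeR). Hadh, the most abundant member, was at 328, 451 and 504 CPM in Ctr BSA and at 349.7, 410.4 and 455 in Ctr PA, which overlapped, and its interval ran from -0.23 to 0.07.

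All 3 genes of electron transfer from the acyl-CoA dehydrogenases rose. Etfa (chromosome 9, 55454508 to 55512243) was at 40.03, 42.9 and 44.3 CPM in Ctr BSA and at 54.6, 58.2 and 61.3 in Ctr PA, without overlap (log2 fold change 0.46 ± 0.05, adjusted p = 1.6e-07, edgeR). Etfb (chromosome 7, 43444083 to 43457800) was at 18.5, 22.96 and 29.5 CPM and at 28.2, 45.9 and 58.5, where S23 alone reached into the BSA range (0.92 ± 0.13, adjusted p = 7.36e-06, edgeR, and 1.04 without S23). Etfdh, which passes the electrons on to ubiquinone, rose by 0.30 ± 0.06 (adjusted p = 0.00036, edgeR), from a median of 46.6 to 60.3 CPM with overlapping ranges. Mlycd, which encodes the enzyme that removes malonyl-CoA, rose by 0.32 ± 0.09 (adjusted p = 0.011, edgeR), and by 0.40 without S23 (adjusted p = 0.000358, edgeR). Acacb, which makes malonyl-CoA at the mitochondrion, was not called (0.25, interval -0.19 to 0.69).

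The genes that fell were Bdh1 and, near the threshold, Acad9. Bdh1 (chromosome 16, 31422280 to 31458901), the 3-hydroxybutyrate dehydrogenase, was at 10.2, 13.3 and 15.4 CPM in Ctr BSA and at 6.55, 8.92 and 11.04 in Ctr PA. The ranges overlapped, the lowest BSA library (S9) being below the highest PA library (S19), and the log2 fold change was -0.51 ± 0.11 (adjusted p = 0.0012, edgeR), or -0.40 without S23, the lowest PA library. Oxct1, the other ketone body enzyme, was at 94.3, 118 and 150.0 CPM in Ctr BSA and at 97.3, 112 and 137 in Ctr PA, with a log2 fold change of -0.04 (interval -0.14 to 0.07). Acad9, an acyl-CoA dehydrogenase known also as an assembly factor of respiratory complex I, was at 25.1, 26 and 29.5 CPM and at 20.8, 24.1 and 26.9 (-0.16 ± 0.06, adjusted p = 0.0475, edgeR). Its call was lost when any 1 of 18 of the 24 libraries was left out. It was kept without S23, the highest Ctr PA library for Acad9 (-0.20, adjusted p = 0.0147, edgeR). The other family members Acad10, Acad11 and Acad12 lay between 0.00 and 0.06 and were not called.

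The branched-chain and glutaryl-CoA dehydrogenases Acadsb, Acad8, Ivd and Gcdh, which act on isoleucine, valine, leucine and lysine intermediates respectively, had log2 fold changes from -0.11 to 0.10 and adjusted p from 0.27 to 0.976 (edgeR). The branched-chain ketoacid dehydrogenase genes Bckdha, Bckdhb and Dbt lay at -0.11, -0.04 and -0.20, of which Dbt was called without S23 (-0.26, adjusted p = 0.0409, edgeR) and not with it (adjusted p = 0.116). In the leucine branch, the methylcrotonyl-CoA carboxylase subunits Mccc1 and Mccc2 and the hydratase Auh were at 0.05, -0.16 and -0.06. In the valine branch, the hydrolase Hibch and the dehydrogenase Hibadh were at 0.05 and -0.03. The propionyl-CoA carboxylase subunits Pcca and Pccb and the epimerase Mcee were at 0.13, 0.13 and 0.09, and Pcca was called only without S23 (0.19, adjusted p = 0.0171, edgeR). Of the 26 genes not called, 25 had 95% intervals within 0.5 of 0 on the log2 scale, which is a 1.41-fold change either way, the exception being Acacb.

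**Figure D3:**
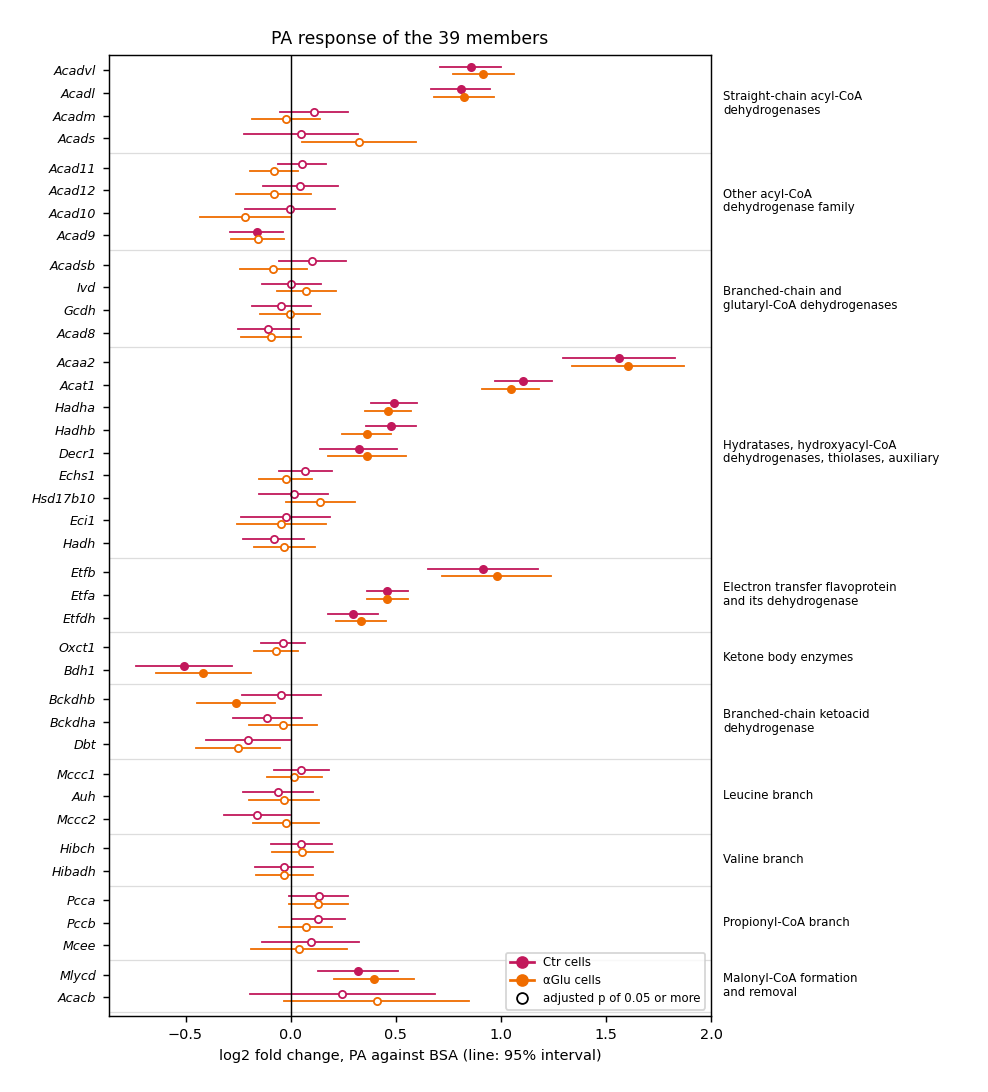
Log2 fold change of PA against BSA with 95% intervals for the 39 members in Ctr cells and in αGlu cells, grouped by role, with open circles where the adjusted p was 0.05 or more. The straight-chain dehydrogenases split into Acadvl and Acadl at 0.81 to 0.92 and Acadm and Acads at -0.02 to 0.33, and Bckdhb, at -0.26 in αGlu cells, is the one gene of branched-chain and propionyl-CoA breakdown that was called.

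All 11 raised members were higher with PA within batch 1 and within batch 2 taken alone, and 9 of the 11 passed the test in each batch alone, with 6 libraries of the Ctr cells each. The log2 fold change of Acaa2 was 1.69 in batch 1 and 1.42 in batch 2, that of Acat1 1.12 and 1.081, and that of Acadvl 0.91 and 0.79. Decr1 and Mlycd lost the call in both. Bdh1 was lower in both batches (-0.38 and -0.64) and was not called in batch 1 alone. The test of the difference of the PA response between batches called 0 members, where 0.0628% of all genes were called. At an unadjusted p below 0.05 it called 2, where 6.51% of all genes were, and by DESeq2 0 members and 44 of all genes. These 2 were Oxct1 (difference -0.18, adjusted p = 0.508, edgeR) and Acad11 (-0.19, adjusted p = 0.568, edgeR). In Oxct1 the PA response was 0.08 in batch 1 and -0.16 in batch 2 in Ctr cells, and in Acad11 it was 0.19 and -0.08.

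PA was compared in αGlu cells in the same way, in 12 libraries that are not among those of the Ctr comparison, although 1 fit gave both. Since the groups of a replicate shared an animal in the study, the 2 comparisons are not independent. PA raised 11 members and lowered 2 in αGlu cells, where 14.4% and 14.2% of all genes were. The median was 0.02, against 0.01 for all genes. In 10 members all PA libraries were above all BSA libraries, where 4.17% of genes did so, and in 0 below, where 3.95% did so. The study's cutoff was passed by 2 members, again Acat1 and Acaa2, and by 0.823% of genes upwards. The 11 raised genes were the same 11 as in Ctr cells, 1 gene (Bdh1) was lowered in both, and 25 were called in neither.

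Acat1 had the smallest p here too, at 49.5, 55.1 and 78.7 CPM in αGlu BSA and at 99.2, 122 and 148 in αGlu PA (1.05 ± 0.07, adjusted p = 6.58e-11, edgeR). Acadvl was at 39.9, 41.5 and 47.8 CPM and at 72.5, 84 and 85.3 (0.92 ± 0.07, adjusted p = 2.15e-09, edgeR). Neither gene's groups overlapped. The values of the other raised genes lay beside those of Ctr cells, with 1.61 for Acaa2, 0.82 for Acadl, 0.98 for Etfb, 0.46 for both Hadha and Etfa, 0.36 for both Hadhb and Decr1, 0.34 for Etfdh and 0.40 for Mlycd. Bdh1 fell by 0.42 ± 0.11 (adjusted p = 0.00574, edgeR). Bckdhb, the beta subunit of the ketoacid decarboxylase, was lowered here (-0.26 ± 0.09, adjusted p = 0.034, edgeR), a call lost when any 1 of 6 of the 24 libraries was left out, and Acad9 was not called (-0.16, adjusted p = 0.057).

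Whether the ASO changed the PA response was tested directly as the difference between those log2 fold changes. No member was called, nor was any of all genes (0% at an adjusted p below 0.05), by edgeR or by DESeq2. At an unadjusted p below 0.05 edgeR called 0 members and 2.09% of all genes. The smallest p was that of Acad11 (difference αGlu minus Ctr -0.13, interval -0.30 to 0.03, adjusted p = 0.999, edgeR), followed by Acadsb (-0.18, interval -0.41 to 0.04). Acadsb was at 62.6, 80.35 and 92.9 CPM in Ctr BSA and at 71.7, 81.9 and 114 in Ctr PA, and at 73.02, 82.4 and 102.7 in αGlu BSA and 67.7, 80.6 and 84.4 in αGlu PA, with S23 the highest in Ctr PA. Acad11 was at 51 to 70.1 CPM in Ctr PA and at 51.1 to 70.3 in αGlu PA. The groups overlapped for both genes. For the genes that rose most, the difference was 0.04 for Acaa2 (interval -0.33 to 0.41), -0.06 for Acat1 (-0.25 to 0.13), 0.06 for Acadvl (-0.14 to 0.26) and 0.02 for Acadl (-0.18 to 0.22). All 4 intervals included 0.

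The αGlu ASO itself was compared with Ctr in each treatment. In BSA 0 members and 0% of all genes were called, with 0 members and 2.9% of genes at an unadjusted p below 0.05, and in DESeq2 0 members and 8 of all genes. Bckdha was lowest in p, at 20.6, 24.8 and 33.9 CPM in Ctr BSA and 17.4, 23.1 and 25.1 in αGlu BSA (-0.15, interval -0.31 to 0.01, adjusted p = 1.0, edgeR). Acad11 was at 42.4, 57.8 and 75.8 CPM and at 51.2, 62.7 and 72.3 (0.10, interval -0.02 to 0.21, adjusted p = 1.0, edgeR). Both pairs of groups overlapped widely.

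In PA the counts were likewise 0 members and 0% of genes, with 0 members and 3.38% at an unadjusted p below 0.05, and 0 members and 30 of all genes by DESeq2. Bckdhb was at 11.7, 13.8 and 19.4 CPM in Ctr PA and at 10.7, 11.8 and 15.1 in αGlu PA (-0.19, interval -0.37 to 0.00, adjusted p = 0.993, edgeR). Acads was at 5.30, 11.8 and 18.7 CPM and at 9.62, 13.7 and 16.6 (0.24, interval -0.02 to 0.51, adjusted p = 0.993, edgeR), where S23 was again the lowest Ctr PA library, and the value without it was 0.13. The groups overlapped for both genes.

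Ratios of members within a library show how the balance between enzymes moved, free of library scaling. The 8 pairs were chosen after their values had been seen, so the ratios are a description with no test. The CPM ratio of Acadvl to Acadm was 1.92 to 3.64 in Ctr BSA and 2.89 to 4.81 in Ctr PA, which overlapped, and 1.82 to 2.52 against 3.995 to 4.85 in αGlu cells, which did not. That of Acadl to Acads went from 2.41 to 3.69 in Ctr BSA to a range of 4.25 to 8.30 in Ctr PA, or 4.25 to 5.85 without S23, with no overlap, but overlapped in αGlu cells. The ratio of Acat1 to Oxct1 was 0.396 to 0.570 in Ctr BSA and 0.937 to 1.25 in Ctr PA, and the ratio of Bdh1 to Oxct1 was 0.0993 to 0.136 and 0.0478 to 0.0937. Neither pair of groups overlapped in Ctr cells, with or without S23, the first ratio being higher with PA and the second lower. In αGlu cells Acat1 over Oxct1 was 0.435 to 0.624 against 1.04 to 1.18, again without overlap, while Bdh1 over Oxct1 was 0.0921 to 0.135 against 0.0739 to 0.102, which overlapped. Hadha over Hadhb, by contrast, was 1.09 to 1.45 in Ctr BSA and 0.914 to 1.48 in Ctr PA, with a mean log2 difference of 0.01, or 0.11 without S23. For the other pairs the mean log2 difference in Ctr cells was 0.43 for Etfb over Etfa, 0.56 for Hadha over Hadh and 1.07 for Acaa2 over Hadhb, and without S23 these were 0.56, 0.63 and 1.3. All 3 overlapped between the groups in Ctr cells and did not overlap in αGlu cells, but without S23 only Etfb over Etfa overlapped in Ctr cells. The overlap of Hadha over Hadh and of Acaa2 over Hadhb thus rested on that library alone, with 0.436 to 0.589 and 0.153 to 0.233 in the other Ctr PA libraries against 0.272 to 0.368 and 0.0598 to 0.105 in Ctr BSA.

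**Figure D4:**
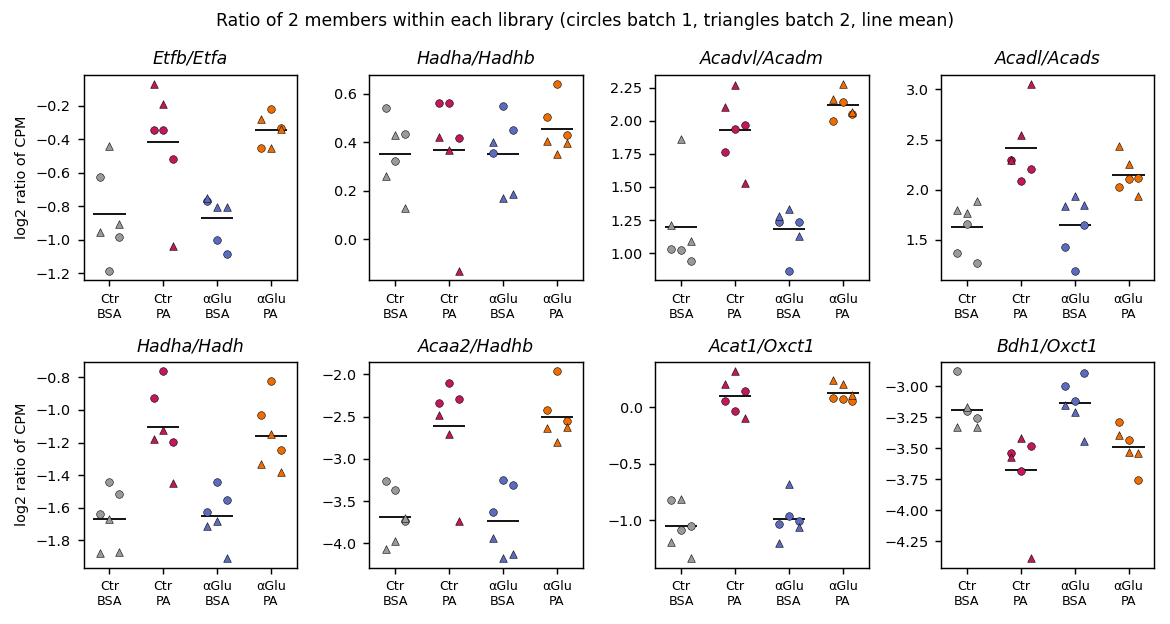
Log2 ratio of the CPM of 2 members within each library, for 8 pairs and the 4 groups, with circles for batch 1, triangles for batch 2 and a line at the mean. The ratio of Hadha to Hadhb differed by 0.01 on average between Ctr PA and Ctr BSA, while that of Acat1 to Oxct1 rose by 1.15 without overlap.

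Relative to the scaled library total, the counts of the 39 genes were 0.160% to 0.197% in Ctr BSA and 0.202% to 0.2205% in Ctr PA. In αGlu cells they were 0.164% to 0.209% with BSA and 0.1985% to 0.225% with PA. On this scale the groups did not overlap in Ctr cells and overlapped in αGlu cells. The scaling factors ran from 0.853 to 1.06 over the libraries, and whether shares of the unscaled totals overlap was not tested.

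The other genes of the pathway were taken as a list of 53 symbols, of which 47 passed the filter. The list was drawn up with earlier results of these data known, so that its counts and median are a description. PA in Ctr cells raised 22 and lowered 3 of them, where 15.5% of all genes tested were raised and 14.5% lowered. The median log2 fold change was 0.22, against 0.01 for all genes. In the carnitine shuttle, which brings acyl groups into the mitochondrion, 3 of 8 rose. These were Cpt1a, the carnitine palmitoyltransferase of the outer membrane (2.18 ± 0.08, from 29.98, 35.1 and 43.3 to 154, 162 and 175 CPM), the carrier Slc25a20 (1.45 ± 0.09) and Cpt2 of the inner membrane (0.52 ± 0.05). Of the peroxisomal counterparts 4 of 9 rose, among them the isomerase Eci2 (0.60 ± 0.06), without overlap between the groups.

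Among the ketogenesis and ketone transport genes, 2 of 6 rose and 1 fell. Of 10 listed targets commonly used for fatty-acid activated nuclear receptors, the 8 that passed the filter all rose. These targets are part of the same list, so that their count is a description too. Among these were Angptl4, an inhibitor of lipoprotein lipase, at 3.37 ± 0.37 and the lipid droplet protein Plin2 at 1.42 ± 0.13. The pyruvate dehydrogenase kinase Pdk4 was at 1.26 ± 0.15 and the fatty acid binding protein Fabp3 at 1.15 ± 0.13. Of the rest of branched-chain amino acid and propionate breakdown, 3 of 10 rose, 1 fell and 6 did not pass. Of the 4 genes listed for malonyl-CoA and lipogenesis, Acsf3 rose, Acly fell, and Acaca and Fasn were not called. Of the 2 flavoprotein maintenance genes Etfrf1 rose (0.55 ± 0.11). Bdh2, Oxct2a, Acaa1b, Plin5 and Ucp3 did not pass the filter. In αGlu cells 24 of the 47 rose and 2 fell, where 14.4% of all genes tested were raised and 14.2% lowered.

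**Figure D5:**
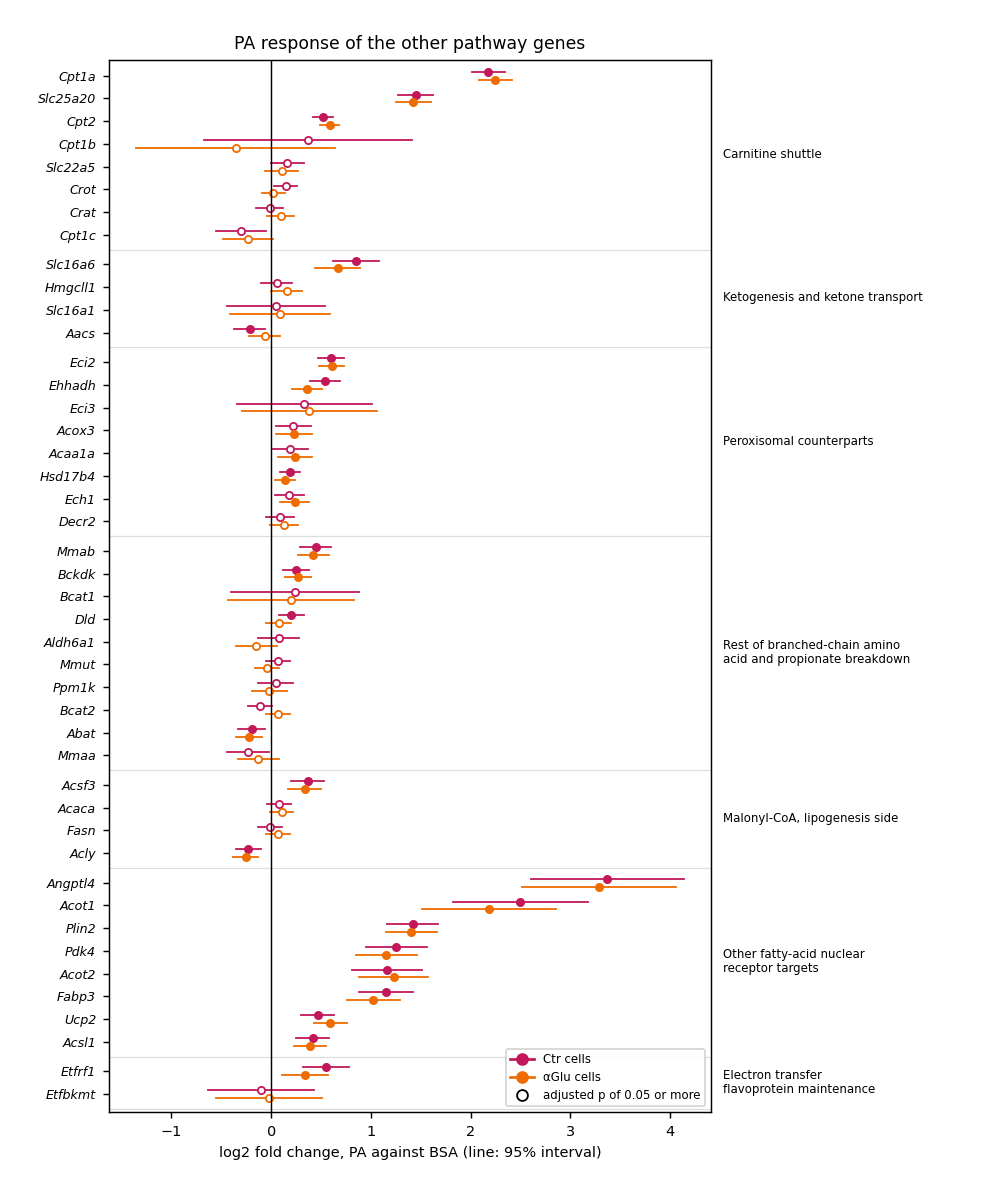
Log2 fold change of PA against BSA with 95% intervals for 44 of the 47 tested genes of the pathway list, in Ctr and αGlu cells, with open circles where the adjusted p was 0.05 or more. Angptl4 and Cpt1a lie at 2.18 to 3.37, and Fasn and Crat near 0.

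The batches differed in many members. Batch 2 was higher in 16 and lower in 8, where 26.1% and 25.4% of all genes were higher and lower. Acacb alone passed a fold change of 2, with -2.28 ± 0.16 (adjusted p = 1.67e-11, edgeR). It was at 4.83, 6.61 and 11.4 CPM over the 12 libraries of batch 1 and at 0.794, 1.40 and 1.91 over those of batch 2, without overlap. Along with it, the sum of the 5 acinar markers was 1240 to 12530 CPM in batch 1 and 96.4 to 232 in batch 2, all 5 being lower in batch 2. The sum of 4 ductal markers was 142 to 292.8 and 54.01 to 109.3 CPM, with 3 lower in batch 2 and 1 higher. Also lower were 4 of 4 alpha cell, 1 of 1 PP cell, 1 of 2 delta cell and 2 of 4 endothelial markers. Higher were 1 of 6 macrophage and 1 of 4 glial markers. The part of any of these cells in the Acacb level was not tested. Oxct1 was at 94.3, 98.3 and 106 CPM in batch 1 and at 118, 132 and 150.0 in batch 2, also without overlap (0.42 ± 0.04, adjusted p = 6.69e-10, edgeR). Among the genes that rose with PA, Acat1 and Hadhb were higher in batch 2 (0.45 and 0.25), Acadl and Acaa2 lower (-0.38 and -0.31). All 9 beta cell markers were higher in batch 2, and the batch and such differences in cell content cannot be told apart.

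Some members share exon bases with another gene, and the sources used here do not give the strand setting of the counting, so that their reads may include those of the partner. This holds for 13 members. In Acadvl 42.9% of the exon bases are shared with Dvl2 on the opposite strand, which was itself not called in Ctr cells (-0.06, adjusted p = 0.72, edgeR). In Etfb 53% are shared with the predicted gene Gm45233 on the same strand, and in Bckdha 61.7% with B3gnt8 on the opposite strand. In Bdh1 13.7% are shared with the antisense gene Gm15743, which was at 0.372 to 1.24 CPM in Ctr BSA and not called (-0.15, adjusted p = 0.809, edgeR). How reads were split between these pairs was not tested.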

How the data were processed

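The mRNA of 24 libraries of dispersed mouse islet cells was sequenced from stranded libraries (Illumina Stranded mRNA kit), and the authors processed the reads in QIAGEN's RNA-seq portal, version 5.1. An aligner and a counting strand were not given in the sources used here, while the submitters' processing notes name build GRCm38. The deposited table holds raw counts of exon reads per gene, and the authors' RPKM, TPM and CPM. The deposited CPM is a signal scaled by a factor of each library, since its totals differ between libraries. The table has 1 row without a gene, which was left out and holds 0 counts, and 0 unmapped columns.

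Counts were scaled by the trimmed mean of M values and filtered with filterByExpr, which left 15916 genes holding 99.95% of the counts. The quasi-likelihood F-test of edgeR 4.0.16 (R 4.3.3) was fitted to all 24 libraries with a term for group and one for batch (biological coefficient of variation 15.4%), and p-values were adjusted by Benjamini-Hochberg over all genes tested, with 0.05 as the threshold. Intervals are at 95%. The script was tested on simulated counts. Alternatives were DESeq2 1.42.0, other scalings and filters, no batch term, each batch alone, the compared groups alone and each library left out, and levels in the deposited RPKM. Leaving out S23 on its own, also from the ranges over libraries, and the ratios with each library left out, were added after seeing the data. The lowest, median and highest library are given for the 8 members of smallest p in PA against BSA in Ctr cells, for those called in the opposite direction, and for the 2 of smallest p in each other comparison. Of the pathway list the 10 genes of smallest p were to be named, but 3 genes of that list are not reported here. Genes and lists were chosen with earlier results of these data known. No gene set was tested. Promoter windows are from RefSeq, GRCm38.p6; 5 members had none.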

Additional observations from a re-analysis of the deposited data

Results flagged for a closer look

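In 11 of 156 groups of 6 libraries, 1 library lay so far from the other 5 that Dixon's test set it apart at the 95% level. Chance gives about 1 in 20 groups. Library S23 of Ctr PA accounts for 3 of these, being high in Hadhb (183 CPM, the others 132 to 148) and Acadsb (114 CPM, the others 71.7 to 87.2) and low in Mlycd (22.1 CPM, the others 30.8 to 34.1). The other 8 fell in 8 different libraries. Acadm was low in S17 of Ctr BSA (13.8 CPM, the others 18.6 to 19.9) and high in S6 of αGlu BSA (21.9 CPM, the others 17.5 to 19.02). Acaa2 was high in S8 of αGlu PA, at 32.7 CPM against 22.2 to 24.3. Low values were found for Mccc1 in S5 of Ctr BSA (19.4 CPM, the others 24.2 to 25.2), Acad9 in S22 of αGlu BSA (23.3 CPM, the others 26.2 to 27.9), Acad10 in S20 of αGlu PA (6.86 CPM, the others 8.95 to 10.2), Etfdh in S12 of αGlu PA (53.3 CPM, the others 61.3 to 64.8) and Hibch in S4 of αGlu PA (13.9 CPM, the others 16.3 to 17.3). The cause of these values was not tested.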

How the results depend on the processing

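The 11 genes raised in Ctr cells kept their call when any 1 of the 24 libraries was left out, with 12 to 15 members called in Ctr cells and 12 to 16 in αGlu cells. Left-out libraries gave 23 to 28 members called between batches, 23 to 27 pathway genes called, and 0 in each comparison that called none. With the study's cutoff of more than 2-fold, the counts fell to 2 members in each PA comparison, 1 between batches and 9 pathway genes in Ctr cells, by the construction of that cutoff. In batch 2 alone 8 members were called in αGlu cells, from 6 of the 12 libraries. Every other alternative kept its count within 1.5 times, and no fold change of a named gene changed sign. Single calls still changed. In Ctr cells Mlycd was not called with the compared groups alone. In αGlu cells Acad9 and Dbt were also called by DESeq2 and with upper-quartile scaling. With the compared groups alone, Acad9, Acads, Dbt and Pcca were added there. The αGlu call for Bckdhb was lost without a filter and without the batch term. The mean log2 ratio of Hadha to Hadhb in Ctr cells lay between -0.03 and 0.11 over left-out libraries, on either side of 0. The call for Acad9 was lost under the authors' scaling, without a filter, without the batch term, with the compared groups alone and in each batch alone, with log2 fold changes from -0.23 to -0.11; the cause was not tested. No paired analysis was possible because the library numbers in the labels are unique to each library, so that no number is shared between groups, and no label ties libraries to an animal. For Acacb, the lowest member at 1.06 TPM, the 95% interval of the PA response in Ctr cells ran from -0.19 to 0.69, the widest of the genes not called there.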
